A study of Mus musculus with 50 samples.

Results

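Liver sections from control and HIRA KO mice were profiled in situ with the CosMx Spatial Molecular Imager, which counts single transcripts of a fixed gene panel inside segmented cells. The cells described here were those rich in Vwf and Fabp4, a pair of genes used as markers of endothelium in larger vessels. A cell was taken where its Vwf and Fabp4 counts summed to at least 3 and made up at least 3% of its gene counts, among cells with at least 20 gene counts. By this rule 85 of 49917 cells were members, and they are called Vwf/Fabp4 cells below. Vwf and Fabp4 chose these cells, so their levels in them are given only as a description.

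Control mice were wild-type C57BL/6 and HIRA KO mice were HIRA fl/fl C57BL/6. Both groups received AAV8-TBG-Cre when 6 months old, were kept for another 12 months and were collected at 18 months. The TBG promoter drives Cre in hepatocytes, so endothelial cells are not the cells in which HIRA is removed, and HIRA itself is not on the panel, so the deletion was not checked here. The 50 fields of view lay on 1 slide in 6 tissue areas, 3 per group, and the areas were the replicates. The labels give each field its genotype but name no mouse, so each p-value measures the spread between tissue areas. Control areas lay on one side of the slide and HIRA KO areas on the other, and slide side and genotype cannot be told apart.

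Endothelial cells line all vessels of the liver, but they differ between vessel types. In the sinusoids they are thin, fenestrated and lack a typical basement membrane, and they take up waste macromolecules through scavenger receptors. In portal veins, hepatic arteries and central veins they form a continuous sheet, with smooth muscle beneath it in hepatic arteries and portal veins. Vwf encodes von Willebrand factor, the adhesive glycoprotein that captures platelets and is stored in endothelial granules. Fabp4 encodes a fatty acid binding protein of adipocytes, macrophages and the endothelium of capillaries and veins. Central veins are ringed by hepatocytes that express Glul, the glutamine synthetase gene, so Glul-rich hepatocytes mark the pericentral zone.

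The Vwf/Fabp4 cells numbered 8, 6 and 21 in the 3 control areas and 15, 12 and 23 in the 3 HIRA KO areas. They were found in 33 of the 50 fields, and no field held more than 6. Control area 3 and HIRA KO area 3 held the most, and the counts of both groups overlapped. The cells carried 566, 581 and 1639 gene counts in all in the control areas and 1262, 1014 and 1881 in the HIRA KO areas, against totals of 734269 to 1565758 for whole areas. Their median total was 80 gene counts per cell with a range of 30 to 160, compared with a median of 111 in all other cells. These sums are small, which limits every gene comparison below.

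Fabp4 supplied most of the counts that chose the cells. In control areas 1 to 3 the Vwf/Fabp4 cells held 24, 16 and 55 Fabp4 counts, and in HIRA KO areas 1 to 3 they held 49, 27 and 64. Vwf counts were 6, 7 and 19 in the control areas and 6, 15 and 19 in the HIRA KO areas. Both genes were counted in 47 of the cells, Fabp4 alone in 37 and Vwf alone in 1. The 235 Fabp4 counts and 72 Vwf counts were 3.87% and 2.18% of all counts of each gene found in cells, so most transcripts of both genes lay in cells that did not pass the rule. Most members were close to the threshold, with exactly 3 counts in 49 cells, 4 counts in 25, 5 in 7, 6 in 3 and 7 in 1. Just outside it, 115 cells passed 3% with 2 counts, and 244 cells had at least 3 counts but fell under 3%.

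The panel carries negative probes, which match no mouse transcript, and these give the number of cells that such a rule finds in background counts. The same rule applied to each of the 45 pairs among the 10 negative probes found a median of 6 cells, with a range of 1 to 12, compared with 85 for Vwf and Fabp4. The summed counts of Vwf and Fabp4 over all cells were 9381, against a median of 6079 and a highest value of 7525 for the negative pairs. With at least 2 counts and 2% the rule found 413 Vwf/Fabp4 cells and a median of 103 cells for the negative pairs. The stricter pair of thresholds, 5 counts and 5%, left 5 cells against a median of 0. The 128 cells found by any negative pair included none of the 85 and had a median total of 79.5 gene counts, close to that of the Vwf/Fabp4 cells. They served as a comparison for what a rule of this form selects by itself.

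**Figure D1:**
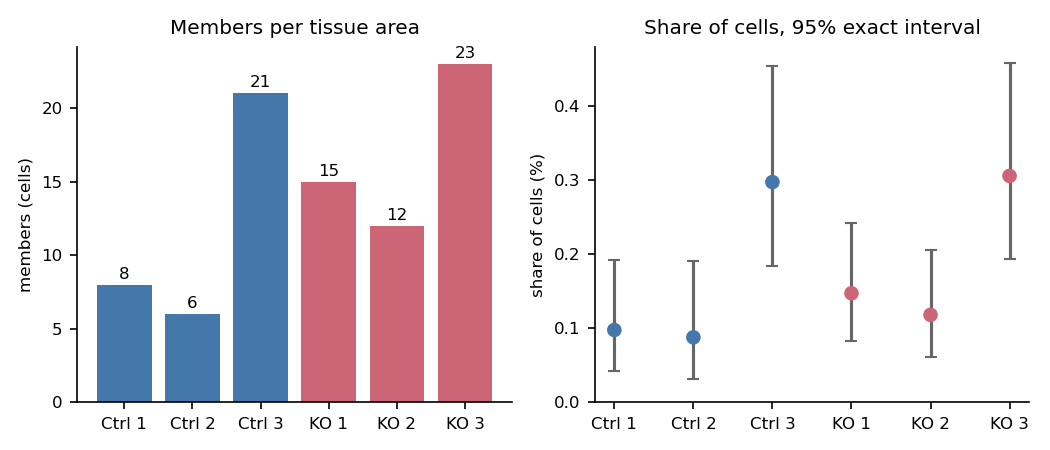
Number of Vwf/Fabp4 cells (members) in each tissue area (left) and their share of the area's cells in percent (right), with bars for the 95% exact binomial interval, for control (Ctrl, blue) and HIRA KO (KO, red). Area 3 of each group held the highest share, 0.298% and 0.306%, and the groups overlapped.

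The share of cells was 0.0978% (95% exact binomial interval 0.0422 to 0.193), 0.0879% (0.0322 to 0.191) and 0.298% (0.184 to 0.454) in the control areas. It was 0.147% (0.0825 to 0.243), 0.118% (0.0611 to 0.206) and 0.306% (0.194 to 0.459) in the HIRA KO areas. The control areas averaged 0.161% ± 0.118 and the HIRA KO areas 0.190% ± 0.101 (SD, n = 3 areas per group). This difference lay within the spread of the areas (two-sided exact permutation test of the means, p = 0.5, where 3 against 3 areas cannot give a p below 0.1). The plot of cells and shares by area shows area 3 of each group above the other areas. The direction of the difference was not stable. With at least 2 counts and 2% the control areas averaged 0.899% and the HIRA KO areas 0.788% (p = 0.7 by the same exact test).

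Whether these cells carried other endothelial genes was examined with 14 genes that are expressed throughout endothelium, namely Pecam1, Cdh5, Kdr, Flt1, Tek, Tie1, Eng, Esam, Clec14a, Ramp2, Icam2, Cd34, Cav1 and Cd93. Their summed level was 347 per 10000 gene counts in the Vwf/Fabp4 cells and 130 in all other cells, and Vwf and Fabp4 were left out of the totals. By area it was 112, 287 and 383 in the control areas and 406, 237 and 423 in the HIRA KO areas. In the other cells of the same areas it was 134, 138 and 152 in control and 117, 127 and 124 in HIRA KO. The Vwf/Fabp4 cells were thus higher in 5 of 6 areas, with control area 1 the exception. The 8 cells of control area 1 held 0 counts of Pecam1, Tie1, Cdh5 and Ttr, and none of them carried 3 kinds of endothelial gene. They had only 566 gene counts in all, so a count of 0 for a single gene says little. Other vessel genes, read by list below, were not low in them. Arterial, venous and portal genes were at 373 per 10000 on 20 counts, against 175 in other cells of control area 1. Sinusoidal genes were at 149 on 8 counts, against 68.3. Results without that area are given where they differ.

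Over all cells, the endothelial level was higher in cells with more Vwf and Fabp4 counts, from 2 counts upward. It was 129 per 10000 with 0 counts, 129 with 1 count, 135 with 2 counts, 165 with 3 counts and 222 with 4 or more (170 to 254 over the areas), members included. Cells with at least 3 counts that made up under 3% were at 165, and the members at 347, as the plot of endothelial genes by Vwf and Fabp4 counts shows. Within the members the order was not the same, with 379 in those with 3 counts and 313 in those with 4 or more. Cells found by the negative probe pairs were at 144. Among the 14 genes, an average negative probe in place of each would give 46.4 per 10000 in the Vwf/Fabp4 cells. At least 1 endothelial transcript was found in 72 of the 85 cells (84.7%) and in 69.9% of other cells. At least 3 kinds of endothelial gene were found in 35 of 85 (41.2%), compared with 21.97% of other cells and 7.81% of cells found by negative probes. To compare cells of unlike depth, each cell with at least 60 gene counts beside Vwf and Fabp4 was thinned to 60 of them. At least 2 endothelial counts then remained in 36 of 67 Vwf/Fabp4 cells (53.7%, 95% exact binomial interval 41.1 to 66.0). They remained in 19.9% of other cells and in 23.5% of cells found by negative probes. The interval covers counting error only. By area the share of Vwf/Fabp4 cells was 20%, 50% and 61.1% in control and 66.7%, 36.4% and 58.8% in HIRA KO. Other cells were at 16.5% to 24.4%, and at 20.1% in control area 1, where the Vwf/Fabp4 cells were thus not higher.

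**Figure D2:**
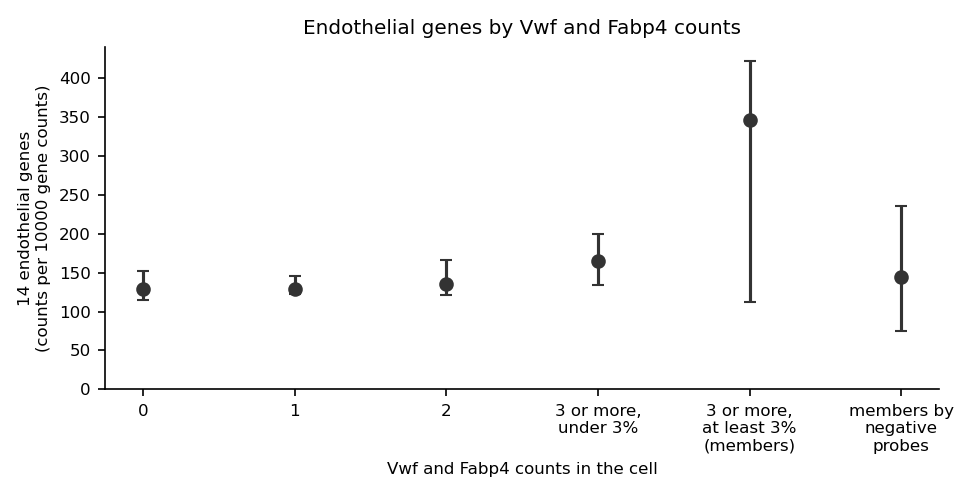
Summed level of 14 endothelial genes, in counts per 10000 gene counts, in cells grouped by their Vwf and Fabp4 counts and in cells that pass the same rule on a pair of negative probes. Points are all areas together and bars run from the lowest to the highest of the 6 areas. The Vwf/Fabp4 cells (members) were at 347, while the other groups lay between 129 and 165.

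Pooled over areas, Vwf was higher in cells with more Fabp4, although most Vwf counts lay outside such cells. It was 4.59 per 10000 in cells without Fabp4, 5.23 with 1 Fabp4 count, 6.45 with 2 and 11.01 in the 172 cells with 3 or more. The last value rests on 40 counts and was uneven, at 11.5, 13.7 and 29.8 in the control areas and 5.46, 12.2 and 5.40 in the HIRA KO areas. In HIRA KO area 3 Vwf was at 7.59 with 2 Fabp4 counts and thus not higher with 3 or more. Over all cells of an area, Vwf ran from 4.38 to 5.49 per 10000 and Fabp4 from 7.80 to 10.4, where a mean negative probe ran from 3.65 to 4.56 and the highest negative probe from 5.15 to 6.31. Vwf was thus near the background of the panel in the tissue as a whole, and Fabp4 was above it.

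Gene by gene, the Vwf/Fabp4 cells were compared with all other cells of the same areas, with counts summed per area and the area kept as a block. Of 996 genes tested, 9 passed an adjusted p of 0.05 (edgeR quasi-likelihood test, Benjamini-Hochberg), or 0.904%. Of these, 4 were higher in the Vwf/Fabp4 cells (0.402%) and 5 were lower (0.502%). All 4 higher genes were endothelial, and 4 of the 5 lower genes encode plasma proteins or apolipoproteins that hepatocytes secrete. The median log2 fold change over all genes was -0.02.

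Eng, which encodes endoglin, a co-receptor for TGF-beta and BMP ligands, was at 18.7, 35.8 and 57.5 per 10000 in the Vwf/Fabp4 cells of the control areas and at 41.4, 41.2 and 77.9 in those of the HIRA KO areas. In other cells it lay between 10.7 and 19.99, and it was higher in the Vwf/Fabp4 cells in 6 of 6 areas. The log2 fold change was 1.86 (SE 0.42, adjusted p = 0.00219), on 35 counts. Tek, the receptor for angiopoietins, was at 18.7, 35.8 and 70.3 in control and at 16.6, 20.6 and 61.2 in HIRA KO, against 10.6 to 15.2 in other cells. It was also higher in 6 of 6 areas, with a log2 fold change of 1.62 (SE 0.44, adjusted p = 0.0262), on 29 counts. Area 3 of each group was highest for both receptors.

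Pecam1, which encodes the junction protein CD31, was at 0, 53.8 and 38.3 per 10000 in control and at 41.4, 20.6 and 27.8 in HIRA KO. It was level across other cells, between 7.27 and 7.94. It was higher in the Vwf/Fabp4 cells of 5 areas and had no count in those of control area 1, with a log2 fold change of 2.05 (SE 0.47, adjusted p = 0.00219) on 21 counts. Tie1, a receptor that partners Tek, was at 0, 17.9 and 38.3 in control and at 66.3, 30.9 and 22.2 in HIRA KO, against 8.12 to 11.9 in other cells. Its log2 fold change was 1.77 (SE 0.46, adjusted p = 0.0181) on 22 counts, with the same 5 of 6 areas higher. The cadherin of endothelial junctions, Cdh5, missed the threshold with a log2 fold change of 1.53 (SE 0.46, adjusted p = 0.0697), and passed it when control area 1 was left out. Without that area 9 genes again passed, 5 of them higher, and Neat1 was no longer among them (adjusted p = 0.0551).

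Single areas decided some of these calls. Eng missed the threshold without HIRA KO area 3 (adjusted p = 0.142) and Pecam1 without HIRA KO area 1 (adjusted p = 0.0501). Tie1 missed it when any 1 of 3 areas was left out (control 3, HIRA KO 1 and HIRA KO 3), as did Tek (control 2, control 3 and HIRA KO 3). The log2 fold changes of all 4 stayed above 0 under every alternative tried. The scaling also mattered. With TMM factors in place of library sizes, 27 genes passed (2.71%), all of them lower (2.71%), the median of all genes moved to -0.87, and Eng, Pecam1, Tie1 and Tek had log2 fold changes of 1.01, 1.21, 0.92 and 0.76 without passing. With DESeq2, 15 genes passed, of which Eng and Pecam1 were higher and 13 were lower.

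**Figure D3:**
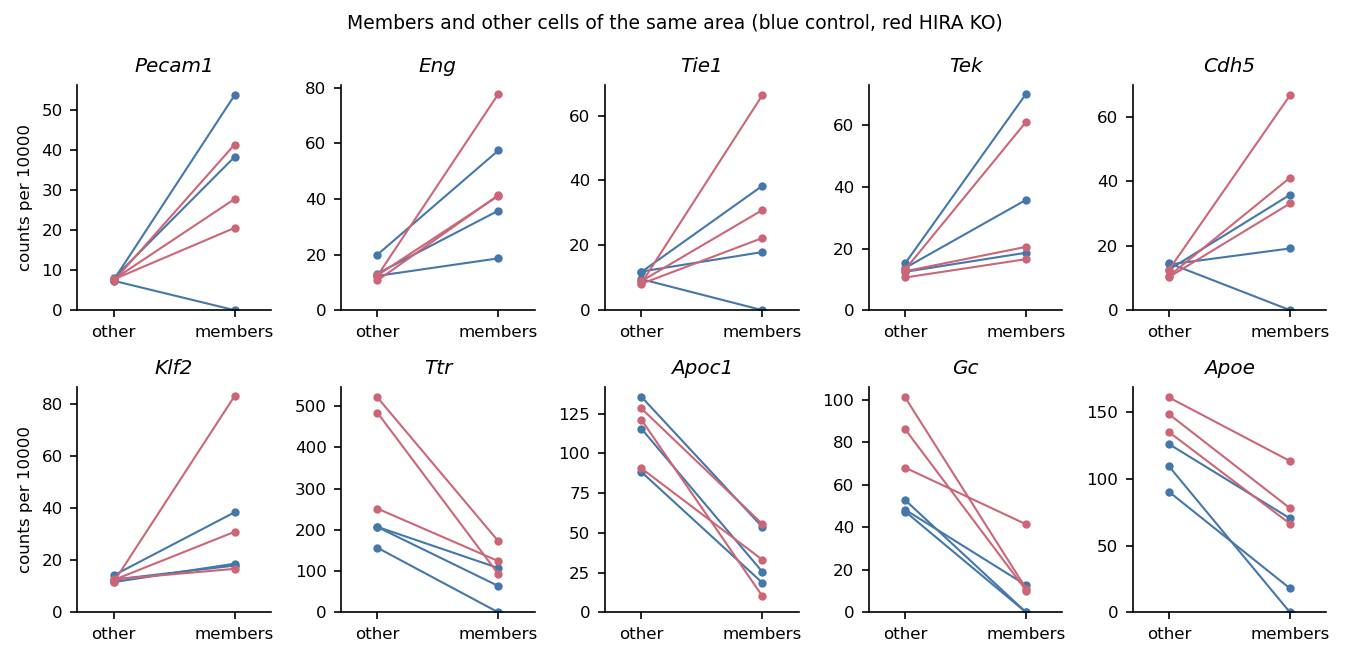
Counts per 10000 gene counts of 10 genes in all other cells (left of each panel) and in the Vwf/Fabp4 cells (members, right), with 1 line per tissue area (blue control, red HIRA KO). Eng, Tek and Klf2 were higher in the Vwf/Fabp4 cells of every area, Pecam1, Tie1 and Cdh5 in 5 of 6 areas, and the 4 genes of hepatocyte secreted proteins (Ttr, Apoc1, Gc and Apoe) were lower in every area.

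Hepatocyte transcripts were lower in the Vwf/Fabp4 cells. Ttr, which encodes the thyroid hormone carrier transthyretin, was at 0, 108 and 63.9 per 10000 in control and at 124, 92.6 and 172 in HIRA KO, while other cells had 157 to 521. Its log2 fold change was -1.67 (SE 0.20, adjusted p = 1.85e-13). The vitamin D binding protein gene Gc (-2.25, SE 0.44, adjusted p = 0.000105), the apolipoprotein genes Apoc1 (-1.77, SE 0.32, adjusted p = 9.31e-06) and Apoe (-1.07, SE 0.26, adjusted p = 0.00823) and the nuclear long noncoding RNA Neat1 (-1.49, SE 0.40, adjusted p = 0.0262) were lower in all 6 areas too. Single areas decided some of these calls as well. Neat1 missed the threshold when any 1 of 4 areas was left out (control 1, control 2, control 3 and HIRA KO 1, adjusted p from 0.0551 to 0.339), and Apoe without control area 2 (adjusted p = 0.112). Of 12 hepatocyte genes measured, 4 were lower and none was higher, and all 12 log2 fold changes were below 0 with a median of -1.26. Their summed level was 338 per 10000 in the Vwf/Fabp4 cells, with a range of 131 to 326 in control and 298 to 417 in HIRA KO. It was 847 in other cells, and 856 in the cells found by negative probes under the same rule. The hepatocyte genes were thus lower in the Vwf/Fabp4 cells but were not absent from them.

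Other genes of endothelium were read by list. Of the 14 pan-endothelial genes 4 were higher and none lower, 12 had log2 fold changes above 0, and the median was 1.41 against -0.02 over all genes. Beyond those already named, Ramp2, the partner of the adrenomedullin receptor, had a log2 fold change of 1.42 (adjusted p = 0.183), and Kdr, the main VEGF receptor of endothelium, 1.33 (adjusted p = 0.282). Of 23 angiogenic ligands and receptors 3 were higher (Eng, Tie1 and Tek) and none lower, with a summed level above that of other cells in 6 of 6 areas (329 against 193 per 10000). Of 9 genes of coagulation and vascular tone none passed, with a median log2 fold change of 0.85 and a summed level that was higher in 5 of 6 areas. Klf2, a transcription factor that endothelium makes under laminar flow, came closest in that list at 1.49 (SE 0.46, adjusted p = 0.085), on 24 counts. Of 14 leukocyte adhesion genes only Pecam1 passed and of 21 TGF-beta and BMP genes only Eng passed.

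No gene of the lists that tell vessel types apart passed against other cells. Of 17 arterial, venous and portal endothelial genes none passed, 10 had log2 fold changes above 0 and the median was 0.34. The summed level was 178 per 10000 in the Vwf/Fabp4 cells and 163 in other cells, and it was higher in only 2 of 6 areas. The lowest p in the list belonged to Clu, the secreted chaperone clusterin, at -1.20 (adjusted p = 0.26). Of 6 sinusoidal genes none passed, but all 6 had log2 fold changes above 0, and the median was 0.36. Their summed level was 87.4 per 10000 in the Vwf/Fabp4 cells and 60.7 in other cells, and it was higher in 5 of 6 areas. Mrc1, the mannose receptor of sinusoidal endothelium and macrophages, was at 25.6 per 10000 against 12.8 in other cells (log2 fold change 0.93, adjusted p = 0.699). Against other cells the arterial, venous and portal list thus did not mark these cells as those of larger vessels. The sinusoidal list was the more often higher of these lists, and the cells are named here by their genes.

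The lists for fatty acid uptake (6 genes, median log2 fold change -0.30), basement membrane and matrix (13 genes, -0.02), antigen presentation and interferon response (21 genes, 0.25), immediate-early and heat shock genes (13 genes, 0.24) and cell cycle and senescence (12 genes, -0.43) had no gene past the threshold. The fatty acid list is of interest because Fabp4 is a fatty acid carrier. Its scavenger receptor Cd36 was at 9.04 per 10000 in the Vwf/Fabp4 cells and 8.94 in other cells, and its members did not move together.

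Markers of other cell types were read in the same way, since a segmented cell can hold transcripts of its neighbours. None of the 8 smooth muscle and myofibroblast genes passed, but their summed level was above that of other cells in 6 of 6 areas, at 93.3 to 125 per 10000 in control and 72.3 to 103 in HIRA KO, against 47.2 to 63.8 in other cells. None of the 8 was at 0. Myl9, a myosin light chain, was at 1.59 (adjusted p = 0.243), Rgs5, a pericyte marker, at 1.23 (adjusted p = 0.278) and Acta2, smooth muscle actin, at 1.13 (adjusted p = 0.561) on the log2 fold change scale. The part of these transcripts in the endothelial results was not tested. Kupffer cell and macrophage genes ran the other way, with 2 of 12 log2 fold changes above 0, a median of -1.22 and a summed level of 58.8 against 130 per 10000. C1qa and C1qb, the complement genes that mark Kupffer cells, were at -2.45 and -2.24 without passing (adjusted p = 0.0989 and 0.0868), and Marco had 0 counts.

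For the other cell types no gene passed either. Fibroblast and stellate genes had a median log2 fold change of -0.03 over 16 genes, and biliary genes of -1.06 over 10 genes, with Epcam at 0 counts. The medians were -0.29 for 14 lymphocyte and plasma cell genes and 0.13 for 5 neutrophil genes. They were -0.60 for 2 platelet genes, -0.10 for 3 adipocyte genes, -0.54 for 2 erythroid genes and -1.16 for 3 mesothelial genes. Adipocytes also make Fabp4, and the adipocyte genes Cfd, Lep and Adipoq came to 11 counts in all 85 cells. By single-cell rules of the same form for other types, 10 of the 85 cells also passed for another type, 2 for sinusoidal endothelium, 2 for smooth muscle, 1 for biliary cells, 1 for Kupffer cells, 3 for B and plasma cells and 1 for T and NK cells. With these 10 left out, 13 genes passed, of which 6 were higher, with Flt1, a VEGF receptor, and the signalling enzyme Plcg1 joining the 4 above.

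A looser choice of cells gave more counts. With at least 2 counts and 2%, 413 cells were compared with all others and 53 of 996 genes passed (5.32%), 33 higher (3.31%) and 20 lower (2.01%). Besides the 4 genes above, the higher genes included the endothelial genes Kdr, Cdh5, Ramp2, Flt1, Esam and Clec14a, the transcription factor Klf2 and the adhesion receptor Adgrl4. They also included Mgp, which encodes a calcification inhibitor of vessel walls, and Vim, the intermediate filament of mesenchymal and endothelial cells. All 9 genes of the stricter choice were among the 53. The looser rule takes in every cell of the stricter choice, so this overlap is partly built in. The added cells were not tested alone. The background of the looser rule is higher, as the count of 103 cells for a median negative pair shows. When the other cells were limited to the 31334 with totals in the range of the Vwf/Fabp4 cells, 7 of the 9 genes passed. Matching each cell 1 to 1 with another of like total left sums of so few counts that 3 genes could be tested with a filter on low counts, of which 2 passed, and without the filter 0 of 995 passed (edgeR, 24 with an unadjusted p under 0.05).

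Set against sinusoidal endothelial cells, the Vwf/Fabp4 cells differed past the threshold in 1 gene. Sinusoidal cells were taken by Kdr and Lyve1 at the same thresholds, which gave 46 cells, 3, 10 and 8 in the control areas and 6, 12 and 7 in the HIRA KO areas. Of 987 genes tested 1 passed (0.101%). Apoc1 was at 34.7 per 10000 in the Vwf/Fabp4 cells and 109 in the sinusoidal cells (log2 fold change -1.78, SE 0.42, edgeR adjusted p = 0.0274), and it did not pass under TMM scaling or with DESeq2. Without Kdr, which chose the sinusoidal cells, the 13 other pan-endothelial genes summed to 327 per 10000 in the Vwf/Fabp4 cells, 272 in the sinusoidal cells and 122 in all other cells. By area the Vwf/Fabp4 cells were at 94.0, 287 and 371 in control and at 383, 216 and 391 in HIRA KO. The sinusoidal cells were at 140, 136 and 339 in control and at 349, 236 and 408 in HIRA KO. Neither kind of cell was thus higher in every area. The lists for vessel type ran apart in this comparison, though no gene in them passed. Of 17 arterial, venous and portal genes 12 had log2 fold changes above 0, with a median of 0.62 against 0.14 over all genes, and their summed level was 178 against 119 per 10000. Of the 5 sinusoidal genes that did not choose the sinusoidal cells, 0 were above 0, with a median of -0.83. Pecam1 had 21 counts against 3 and Tie1 22 against 1, both with an adjusted p of 0.996. On simulated counts with the sums of this comparison, library sizes recovered 6.5% of genes changed 4-fold and TMM scaling 19%. The comparison could thus have missed most differences of that size.

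Within the Vwf/Fabp4 cells, those with both genes and those with Fabp4 alone were set side by side as a description, since Vwf alone was found in 1 cell. The 14 genes summed to 348 per 10000 in the 47 cells with both and to 353 in the 37 with Fabp4 alone. The cell richest in the marker pair, with 7 Fabp4 and 0 Vwf counts among 74 gene counts in HIRA KO area 3, held 0 counts of the 14 genes. Another cell of that area, with 5 Fabp4 counts among 143, held 9 counts of 7 kinds.

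The surroundings of the Vwf/Fabp4 cells were read from the 20 nearest cells of each. Neighbours were classed by markers at the same thresholds, for example Acta2, Tagln and Myh11 for smooth muscle and Glul for pericentral hepatocytes. Smooth muscle cells made up 1.88%, 1.67% and 2.14% of the neighbours in the control areas and 3.33%, 0.833% and 0.652% in the HIRA KO areas, against 0.203% to 0.678% around other cells. These shares rest on 29 neighbours, 3, 2 and 9 in the control areas and 10, 2 and 3 in the HIRA KO areas. They lay near only 2, 1 and 2 Vwf/Fabp4 cells in control and near 5, 1 and 3 in HIRA KO. HIRA KO area 2 was at 0.833% against 0.678% around its other cells. The mean over areas was 1.75% ± 0.973 around the Vwf/Fabp4 cells and 0.452% ± 0.213 around other cells (SD, n = 6), and every area was higher (exact sign-flip permutation test, two-sided, p = 0.031, the smallest that 6 areas allow; adjusted p = 0.1125 over 9 classes). With the 10 nearest cells 5 of 6 areas were higher (exact sign-flip p = 0.09375). The median distance to the nearest smooth muscle cell did not follow this, since in 3 areas it was longer for the Vwf/Fabp4 cells than for other cells. It was 2403 against 2026 pixels in control area 3, 1475 against 1367 in HIRA KO area 2 and 2046 against 1893 in HIRA KO area 3.

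Pericentral hepatocytes were the most frequent of these neighbours. They were 1.88%, 15.8% and 6.67% of neighbours in control and 0%, 12.1% and 7.39% in HIRA KO, against 0.151% to 2.66% around other cells. The means were 7.31% ± 5.98 and 1.18% ± 1.03 (SD, n = 6), with 5 of 6 areas higher (exact sign-flip p = 0.0625, adjusted p = 0.1125). HIRA KO area 1 was the exception, where none of the 15 cells had such a neighbour. In control area 1 the share rests on 3 neighbours of 2 cells. The median distance to the nearest pericentral hepatocyte was longer for the Vwf/Fabp4 cells than for other cells in these areas. It was 7209 against 3091 pixels in HIRA KO area 1 and 7125 against 3404 in control area 1. In every other area it was shorter. Kupffer cells were rarer, at 3.24% ± 2.84 around the Vwf/Fabp4 cells and 5.61% ± 2.87 around others (SD, n = 6), and lower in all 6 areas (exact sign-flip p = 0.031, adjusted p = 0.1125). None of the 9 classes passed the adjusted threshold, which 6 areas could reach only if more classes had the smallest p.

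Other Vwf/Fabp4 cells made up 1.06% ± 0.804 of their neighbours and 0.179% ± 0.103 of the neighbours of other cells (SD, n = 6), with 5 of 6 areas higher (exact sign-flip p = 0.0625, adjusted p = 0.1125), and 18 of the 85 had at least 1 among their 20 nearest. With the 10 nearest cells 3 of 6 areas were higher (exact sign-flip p = 0.25). In control area 3, which held 21 of the cells, the median distance to the nearest Vwf/Fabp4 cell was 1456 pixels from them and 1433 from other cells. Fibroblasts were at 0.688% and 0.411%, biliary cells at 0.0397% and 0.127%, B and plasma cells at 2.10% and 2.03%, and T and NK cells at 1.45% and 1.40%. Their exact sign-flip p-values were 0.0625 for biliary cells, which were higher in 1 of 6 areas, and 0.5 or more for the other 3.

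**Figure D4:**
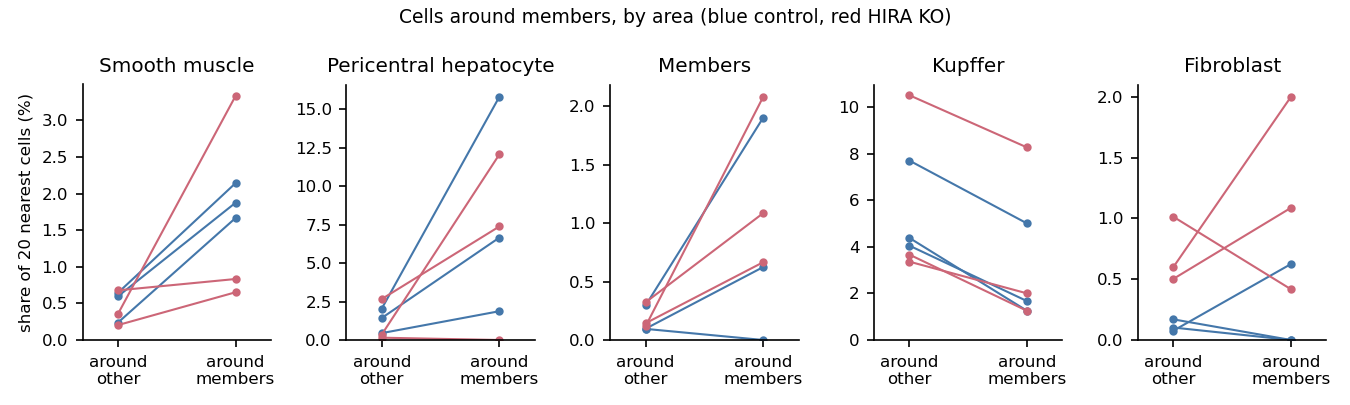
Share of the 20 nearest cells in percent that belong to 5 classes, around all other cells (left of each panel) and around the Vwf/Fabp4 cells (members, right), with 1 line per tissue area (blue control, red HIRA KO). Smooth muscle shares were higher and Kupffer shares lower around the Vwf/Fabp4 cells in 6 of 6 areas, and pericentral hepatocytes were higher in 5.

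A smooth muscle cell was among the 20 nearest of 14 Vwf/Fabp4 cells and a pericentral hepatocyte among those of 29, and 0 cells had both. Both were rarely found together around other cells either, at 131 of the 2665 near smooth muscle, so a count of 0 among 14 says little. Neither was found near 42. The endothelial genes summed to 433 per 10000 in the 14, 372 in the 29 and 305 in the 42, each above the 130 of other cells. Vwf was unevenly placed among them. Cells with Fabp4 alone were 5 of the 14 near smooth muscle, 7 of the 29 near pericentral hepatocytes and 25 of the 42 near neither. The 29 cells near pericentral hepatocytes held 34 Vwf and 74 Fabp4 counts, while the 42 near neither held 27 and 122. These values are a description, and their difference was not tested.

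The Vwf/Fabp4 cells were smaller than other cells in every area. Their median area was 6699, 7415 and 7813 square pixels in the control areas and 7693, 5222 and 4666 in the HIRA KO areas, compared with 8707 to 16630 in other cells. The mean of the area medians was 6584 ± 1340 against 12414 ± 2935 (SD, n = 6), and every area was lower (exact sign-flip p = 0.031, adjusted p = 0.0625 over 8 measures). The 3% threshold favours cells with few counts. Among other cells within the same range of totals the mean was 9113, and the Vwf/Fabp4 cells were lower in 5 of 6 areas (exact sign-flip p = 0.0625). Nuclear area was 2300 ± 459 against 2899 ± 150 (SD, n = 6; exact sign-flip p = 0.0625), and 2373 in other cells of like totals. The nucleus filled 32.6% ± 4.85 of the cell area against 24.4% ± 3.65, higher in 6 of 6 areas (SD, n = 6; exact sign-flip p = 0.031). The nuclear share was not among the 8 measures, so its p-values were not adjusted. This share lay apart by genotype in the Vwf/Fabp4 cells, at 28.7% ± 1.41 over the control areas and 36.4% ± 3.53 over the HIRA KO areas (SD, n = 3 per group), without overlap and at the lowest exact permutation p the design can give, 0.1. It did so in other cells too, at 20.4% to 22.6% in control areas and 23.5% to 29.6% in HIRA KO areas.

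Stain intensities are on the scale of the imager, and 3 of the 5 stains lay on one side in every area. PanCK, a stain for epithelial keratins, was at 2137 ± 606 in the Vwf/Fabp4 cells and 2786 ± 514 in others and was lower in all 6 areas. CD3, a T cell stain, was at 499 ± 146 and 641 ± 116 and was also lower in all 6. The DNA stain DAPI was at 3183 ± 726 and 2521 ± 453 and was higher in all 6 (SD, n = 6; exact sign-flip p = 0.031 and adjusted p = 0.0625 for each of the 3). Against other cells within the same range of totals DAPI was higher in 5 of 6 areas (exact sign-flip p = 0.0625). With means in place of medians it was also higher in 5 (exact sign-flip p = 0.09375). PanCK and CD3 stayed lower in all 6 both ways. B2M (exact sign-flip p = 0.15625) and the leukocyte stain CD45 (p = 0.75) had areas on both sides. None of these stains marks endothelium.

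**Figure D5:**
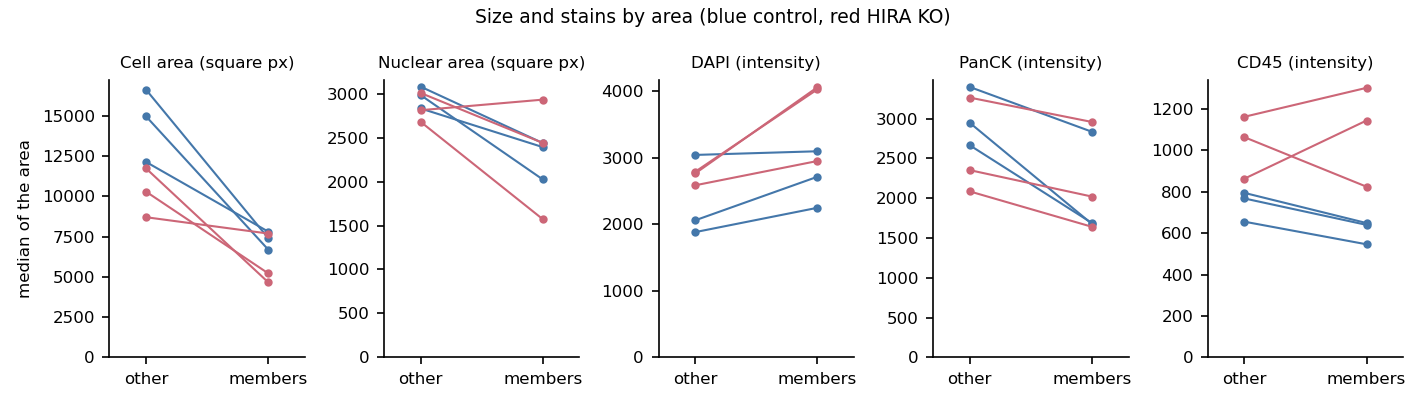
Median per tissue area of cell area and nuclear area in square pixels and of DAPI, PanCK and CD45 intensity, in all other cells (left of each panel) and in the Vwf/Fabp4 cells (members, right), with 1 line per area (blue control, red HIRA KO). Cell area and PanCK were lower and DAPI higher in the Vwf/Fabp4 cells of every area.

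The position of single transcripts within these cells was read against the nucleus. Of the Fabp4 transcripts in the Vwf/Fabp4 cells 58.3% lay over the nucleus (95% exact binomial interval 51.7 to 64.7), as did 51.4% of the Vwf transcripts (39.3 to 63.4) and 55.8% of those of all other genes (54.6 to 57.0). Both intervals held the value of the other genes. In the remaining cells the shares were 46.3% for Fabp4 (45.04 to 47.6), 53.0% for Vwf (51.3 to 54.7) and 47.7% for other genes, so that there Vwf lay more often, and Fabp4 less often, over the nucleus than other genes by more than counting error. The intervals pool the transcripts of all areas, and the spread between areas was not tested. Negative probes were at 28.9% in the remaining cells and at 40.9% of 22 in the Vwf/Fabp4 cells. Elsewhere in the tissue 6.52% of Fabp4, 6.61% of Vwf and 6.89% of other transcripts lay outside any segmented cell.

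The effect of genotype on gene counts within the Vwf/Fabp4 cells could be tested for few genes. Only 4 genes passed the filter on low counts (Ttr, Ppia, Tpt1 and Itm2b), and 0 of them differed between HIRA KO and control (edgeR quasi-likelihood test, background 0%; 0 with an unadjusted p under 0.05). Ttr was at 60.2 per 10000 over the control cells and 138 over the HIRA KO cells (log2 fold change 0.82, SE 0.68, adjusted p = 0.896). Without the filter 0 of 977 genes passed (0%) and 22 had an unadjusted p under 0.05, 6 of them higher in HIRA KO. DESeq2 could not be fitted to these sums. On simulated counts of this comparison with TMM scaling, 3% of genes changed 4-fold were recovered, so the data could show only very large differences. In the 413 cells of the looser choice 1 of 111 genes passed, Ttr, which was higher in HIRA KO (log2 fold change 1.13, SE 0.29, adjusted p = 0.0148). When the genotype effect in these 413 cells was set against that in all other cells, 0 of 996 genes passed (edgeR interaction term). The size of difference that this test could find in the 413 cells was not examined.

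The summed levels of the 14 endothelial genes overlapped between the genotypes in these cells, at 112 to 383 per 10000 in control and 237 to 423 in HIRA KO. Cdh5 had 0, 2 and 3 counts in the control areas and 4, 4 and 12 in the HIRA KO areas (log2 fold change 1.57, SE 1.002, adjusted p = 0.955 without the filter). Clu had 0 counts in all 3 control areas and 2, 5 and 6 in the HIRA KO areas, or 32.7 per 10000 against a limit of 11.3 set by 3 counts in the control cells together, with an unadjusted p of 0.00312 and an adjusted p of 0.955 (edgeR). In the other cells of the control areas Clu ran from 22.7 to 48.2 per 10000. When the genotype effect in the Vwf/Fabp4 cells was set against that in other cells, 0 of 996 genes passed (edgeR interaction term, 0%; 26 with an unadjusted p under 0.05, and 0 passed with DESeq2). On simulated counts of this interaction test 0.5% of genes changed 4-fold were recovered. The absence of calls therefore says little about whether the effect differed between these cells and the rest.

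Over all cells of an area, Fabp4 and Vwf did not differ between genotypes past the threshold. Their log2 fold changes were -0.05 (SE 0.12, adjusted p = 0.926) and -0.07 (SE 0.11, adjusted p = 0.902), where 2 of 998 genes passed (edgeR, 0.2%; 11 with DESeq2). In such sums fewer cells of a type and less RNA per cell cannot be told apart. Around the Vwf/Fabp4 cells none of the 9 neighbour classes passed a test between genotypes (exact permutation tests, adjusted p of 0.9 or more). For CD45 intensity the medians of these cells averaged 611 ± 56.8 over the control areas and 1090 ± 243 over the HIRA KO areas (SD, n = 3 per group). The groups did not overlap, and the exact permutation p of 0.1 is the lowest this design can give (adjusted p = 0.6). The CD45 medians of other cells were apart too, at 655 to 794 in control and 863 to 1162 in HIRA KO.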

How the data were processed

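Counts of decoded transcripts per gene and segmented cell were deposited by the authors from the CosMx platform run (1000 gene targets, 10 negative probes) without normalization, as were stain intensities per cell, per the file headers. The aspect ratio, a fraction of the longer side, and areas in square pixels were also deposited per cell, and segmentation versions and pixel size are not given in the sources used here. Counts per area ran from 734269 to 1565758. The members, gene lists and tests were chosen with earlier results of these data known.

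Member and other counts were summed per tissue area and tested with edgeR 4.0.16 in R 4.3.3 (glmQLFTest, Benjamini-Hochberg), with area as a block for comparisons within areas, and Vwf and Fabp4 left out. Areas were assigned from field numbers. TMM scaling had been planned. On simulated counts of the comparison with other cells it gave 40 false calls among 796 unchanged genes when 200 were changed 4-fold, against 3 with library sizes, which recovered 56% of the changed genes. Library sizes were therefore used for that comparison. They were also used for the sinusoidal comparison and the interaction, where simulated counts gave 0 false calls with either scaling. Against sinusoidal cells TMM recovered 19% of genes changed 4-fold and library sizes 6.5%, so the simulation did not favour library sizes there. TMM was kept for the genotype tests. No gene passed the filter on low counts against sinusoidal cells, so that comparison was run unfiltered. Other tests were exact permutation tests over areas in Python 3.11.15 with scipy 1.17.1. Alternatives used DESeq2 1.42.0, other thresholds, other comparison cells and each area left out. Genes were named by fold among those past the threshold that moved one way in every area (up to 10 per direction), or by the lowest p in each list (up to 3). Genes outside this rule (Cdh5, Kdr and those of the looser choice) were chosen after their values were seen. The 23 lists include markers of other cell types.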

Additional observations from a re-analysis of the deposited data

Results flagged for a closer look

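The results below were picked because all control areas lay on one side and all HIRA KO areas on the other. The search covered 23 gene lists, 9 neighbour classes and 8 stain and shape measures. It also covered neighbour gene counts, neighbour distance and nuclear share. The split was thus the rule of choice and is not a test of genotype. In the neighbourhoods of the Vwf/Fabp4 cells, the mean gene count per neighbouring cell was on opposite sides in the 2 genotypes. In the 3 control areas it was higher around the Vwf/Fabp4 cells than around other cells (125 against 112, 165 against 158 and 107 against 104). In the 3 HIRA KO areas it was lower (104 against 127, 149 against 153 and 167 against 183). The HIRA KO mean of the differences minus the control mean was -22.4 gene counts per cell, and this difference was not tested.

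The summed level of 12 cell cycle and senescence genes was picked by the same rule and split in the same way. It was higher in the Vwf/Fabp4 cells than in other cells of the 3 control areas, at 224, 179 and 160 per 10000 against 182, 164 and 131. In the HIRA KO areas it was lower, at 133, 61.7 and 72.3 against 152, 139 and 123. The HIRA KO mean minus the control mean of these differences was -78.1 per 10000, and this difference was not tested. The list rests on 82 counts in 85 cells. None of its genes passed the interaction test by edgeR, which recovered 0.5% of genes changed 4-fold on simulated counts.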

How the results depend on the processing

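Small sums limit these results: 85 cells with 6636 gene counts beside Vwf and Fabp4, in 3 areas per group. The HIRA KO minus control difference in the share of cells was -0.111 percentage points with at least 2 counts and 2%, and ran from -0.0283 to 0.0977 with each area left out. Genes called against other cells numbered 27 with TMM, 23 with TMMwsp, 15 with DESeq2, 53 with looser members, 2 of 3 tested with matched cells, 0 with matched cells unfiltered, and 6 to 9 with each area left out. Against sinusoidal cells 0 were called with TMM, TMMwsp or DESeq2, 10 of 20 tested with looser sinusoidal cells (4 higher and 6 lower, 50%), and 0 to 2 with each area left out. Between genotypes looser members gave 1, and the interaction test on them gave 0. In all 137 combinations of the 9 genes called against other cells with an alternative the direction was kept, and in 95 the call. On simulated counts of the comparison with other cells, the median of unchanged genes under TMM was -0.72 with 2-fold changes and -0.88 with 4-fold changes. With library sizes it was -0.19 and -0.40. Why the median moved was not tested.

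Some values with no call changed sign. With each area left out the ranges were -0.139 to 0.0538 for the log2 fold change of Fabp4 over all cells (above 0 without control area 3 or HIRA KO area 2), -0.135 to 0.253 percentage points for T and NK neighbours, -0.921 to 0.815 points for B and plasma neighbours, -0.016 to 0.02 for aspect ratio and -96.4 to 7.63 for CD45. Sinusoidal neighbours were at 0.0101 points with 10 nearest cells. Not run were Vwf alone against Fabp4 alone (1 cell), gene, neighbour and stain tests with at least 5 counts and 5% (5 cells, 2 areas at 0), and DESeq2 and the fit per field between genotypes. With the slide row as a replicate block, genotype gave 0 calls. No other paired analysis was possible because the labels name no mouse.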
